A study of Mus musculus with 12 samples.

Results

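Described here are 10 genes for chaperones and stress factors of the endoplasmic reticulum (ER): Hspa5, Hsp90b1, Calr, Pdia3, Pdia4, Pdia6, Dnajb9, Dnajc3, Ddit3 and Atf4. The set is called the ER genes below, though Ddit3 and Atf4 encode transcription factors. All 10 were chosen by symbol from the raw count table of 55487 genes and are described over 4 ages. The symbols matched 11 entries of the table, because Ddit3 has 2 entries. RNA came from the lung of C57BL/6NCr mice aged 6, 12, 20 or 30 months (6M, 12M, 20M and 30M), with 3 libraries at each age and no treatment or genotype in the labels. Libraries are named by age and replicate number. The labels do not say whether each library is a separate animal, so the p-values reflect spread among libraries only, and that spread may be technical. Whole lung holds many cell types, and a lower level cannot be told apart as fewer cells of a type or less RNA per cell.

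The ER is where secreted and membrane proteins fold. Hspa5 (BiP), an HSP70-type chaperone, binds unfolded chains there, and when unfolded protein builds up the sensors Ern1 (IRE1), Eif2ak3 (PERK) and Atf6 start the unfolded protein response. The IRE1 and ATF6 branches raise the transcription of chaperones, in part through the ER stress response element (ERSE) of their promoters. The PERK branch raises translation of the transcription factor Atf4, which in turn can induce Ddit3 (CHOP). In lung, alveolar type 2 cells and plasma cells are secretory cells with a large ER.

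The promoter windows are shown because the ERSE is a sequence that several of these genes are known to share, and their levels are compared across libraries below. The motif, CCAAT and CCACG with 9 bases of any kind between them, was searched on both strands in the 250 bases before each RefSeq transcript start (GRCm38.p6), and all 10 genes had a window. It was present in 5 of the 10, in Hspa5, Hsp90b1 (2 matches), Calr, Pdia6 and Dnajc3, and in 0.113% of all 32851 windows. The motif was defined on ER chaperone promoters, so this share is a description. With CCAAT kept exact and up to 1 mismatch allowed in CCACG, 8 of the 10 windows and 0.904% of all windows matched. The added genes were Pdia3, Pdia4 and Ddit3. The closest match had 2 mismatches in Atf4 and 3 in Dnajb9. Capitals mark the CCAAT and CCACG parts, or ATTGG and CGTGG where the match is on the opposite strand. Each sequence runs 5′ to 3′ on the gene's strand, and flanks are shorter in Hspa5 and Pdia3, where the table's gene span starts upstream of the RefSeq start.
Hspa5 (chr2:34772020-34772048, + strand): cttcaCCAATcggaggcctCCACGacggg
Hsp90b1 (chr10:86705503-86705686, - strand): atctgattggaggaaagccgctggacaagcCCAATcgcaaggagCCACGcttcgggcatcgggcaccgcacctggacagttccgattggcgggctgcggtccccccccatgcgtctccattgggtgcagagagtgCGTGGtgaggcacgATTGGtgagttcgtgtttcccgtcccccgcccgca
Calr (chr8:84847045-84847123, - strand): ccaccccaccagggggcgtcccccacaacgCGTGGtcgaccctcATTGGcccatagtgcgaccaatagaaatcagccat
Pdia6 (chr12:17266461-17266539, + strand): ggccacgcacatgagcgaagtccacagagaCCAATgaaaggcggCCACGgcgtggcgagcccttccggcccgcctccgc
Dnajc3 (chr14:118937797-118937875, + strand): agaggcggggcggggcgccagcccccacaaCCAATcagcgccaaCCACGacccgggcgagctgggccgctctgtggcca
Pdia3, 1 mismatch (chr2:121413868-121413896, + strand): cgcagCCAATcggcggctgCCACActgcg
Pdia4, 1 mismatch (chr6:47813572-47813650, - strand): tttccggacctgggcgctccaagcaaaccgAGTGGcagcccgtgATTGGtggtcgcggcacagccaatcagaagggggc
Ddit3, 1 mismatch (chr10:127290672-127290750, + strand): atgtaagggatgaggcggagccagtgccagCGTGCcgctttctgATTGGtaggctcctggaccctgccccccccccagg

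Shorter elements were also searched in these windows. The plain CCAAT box was in all 10 windows and in 33.8% of all windows, and it overlaps the ERSE. ERSE-II (ATTGG, 1 base of any kind, CCACG), the XBP1-type core TGACGTGG and the ATF4-type element TGATGNAAT were in none of the 10 windows, and in 0.0304%, 0.563% and 0.816% of all windows. No match says only that these letters are not in this window.

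Library totals ran from 12152066 to 15058628 counts, and 18407 genes passed the filter on low counts and were tested. All 10 genes passed it, with 300 to 12743 counts per library. Ddit3 had the fewest counts, 300 to 498 per library, and so the largest counting error. The second Ddit3 entry, for an upstream open reading frame (chromosome 10, 127290829 to 127293753), lies inside the first and had 0 counts in every library; it was not tested. How overlapping entries were counted is not given in the sources used here. The lung markers Scgb1a1, Sftpc and Ager were at 38105, 22122 and 2652 CPM at 6M. CPM are counts scaled to 1e+06 per library with TMM factors. In 20M_221, 20M_222 and 30M_220, the difference of each gene from its 6M mean rose with the GC content of the gene. Spearman rho over 18382 genes was 0.358, 0.465 and 0.328 in these 3. It was 0.229 in 12M_208, while the remaining libraries had -0.0869 to 0.0518. These 3 are called the GC-trend libraries below. In addition, 20M_222 held skeletal muscle transcripts, with a summed level of 2753 CPM over 8 markers against 14.1 to 53.6 CPM elsewhere.

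Per kilobase of exon, the RNAs of 4 proteins of the folding machinery led. Exon length is the union over all annotated transcripts of a gene, so the order between genes depends on the annotation. CPM per kilobase of exon (RPKM), averaged over the 12 libraries, were 195 ± 39.1 (SD, n = 12) for Pdia3, 190.01 ± 34.9 for Hsp90b1, 179 ± 36.4 for Calr and 173 ± 43.3 for Hspa5. Neighbours among these 4 did not differ beyond their spread by an exact two-sided sign-flip permutation test over libraries (adjusted p = 0.495 to 0.609 over 9 neighbouring pairs). Atf4 followed at 95.96 ± 27.4 RPKM, below Hspa5 in 12 of 12 libraries (exact permutation test, adjusted p = 0.0011). Pdia6 was at 78.1 ± 13.9, Pdia4 at 59.03 ± 8.66 and Dnajc3 at 55.5 ± 9.27 RPKM. Pdia4 and Dnajc3 did not differ beyond their spread (exact permutation test, adjusted p = 0.264). Dnajb9 was at 32.6 ± 8.60 and Ddit3, the lowest, at 15.96 ± 3.10 RPKM.

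Across ages, none of the 10 genes was called. A gene is called when its Benjamini-Hochberg adjusted p, over all tested genes, is under 0.05 in edgeR's quasi-likelihood test. At 30M against 6M, 0 of 10 were called, where 1.96% of all tested genes were (1.93% higher and 0.0272% lower). At an unadjusted p under 0.05 there was 1 of 10, beside 11.6% of all genes. DESeq2, limma voom and a fit with each library's GC trend removed also called 0. The fitted log2 change was below 0 in 8 of the 10, with a median of -0.16 against 0.0028 over all tested genes. Adjusted p-values (edgeR) ran from 0.421 to 0.997.

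At 20M, the levels of most of these genes were at their lowest, without a call in edgeR. The 20M mean was the lowest of the 4 age means in 8 of the 10, that of 6M in Calr and that of 30M in Atf4. The 12M mean was the highest in 6, the 6M mean in 3 and the 30M mean in 1 (Calr). Against 6M, the log2 change at 20M was below 0 in 9 of 10 (median -0.36; 0.03 over all genes). At this age edgeR called 0 of 10, and 0.0163% of all tested genes. The unadjusted p was under 0.05 in 2 of 10 (7.8% of all genes). DESeq2 called 0, and limma voom with quality weights called 2, Dnajb9 and Dnajc3, beside 4.22% of all genes. Against 12M, all 10 had a log2 change below 0 at 20M (median -0.34; 0.02 over all genes). There edgeR called 0 of 10 and 0% of all genes, with 4 of 10 at an unadjusted p under 0.05 (11.2% of all genes), and DESeq2 and voom called 0. These comparisons share libraries, and 20M has 2 of the 3 GC-trend libraries.

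The other comparisons had no call either. At 12M against 6M, 0 of 10 were called in edgeR, DESeq2 and voom, beside 0% of all genes in edgeR, and 0 of 10 had an unadjusted p under 0.05 (3.6% of all genes). At 30M against 12M the calls were 0 of 10 and 0.712% of all genes (0.657% higher and 0.0543% lower), with 2 of 10 at an unadjusted p under 0.05 (10.9%). For 30M against 20M these values were 0 of 10 and 0.212%, with 0 of 10 unadjusted (8.89%). DESeq2 and voom called 0 in both. The joint test over ages called 0 of 10 and 1.11% of all genes, with 1 of 10 unadjusted (11.2%). In that test DESeq2 called 0 and voom called Dnajb9 and Dnajc3, beside 9.01% of all genes. A slope per month was called for 0 of 10 and for 2.68% of all genes, with 3 of 10 unadjusted (13.3%) and 0 by DESeq2 or voom.

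**Figure D1:**
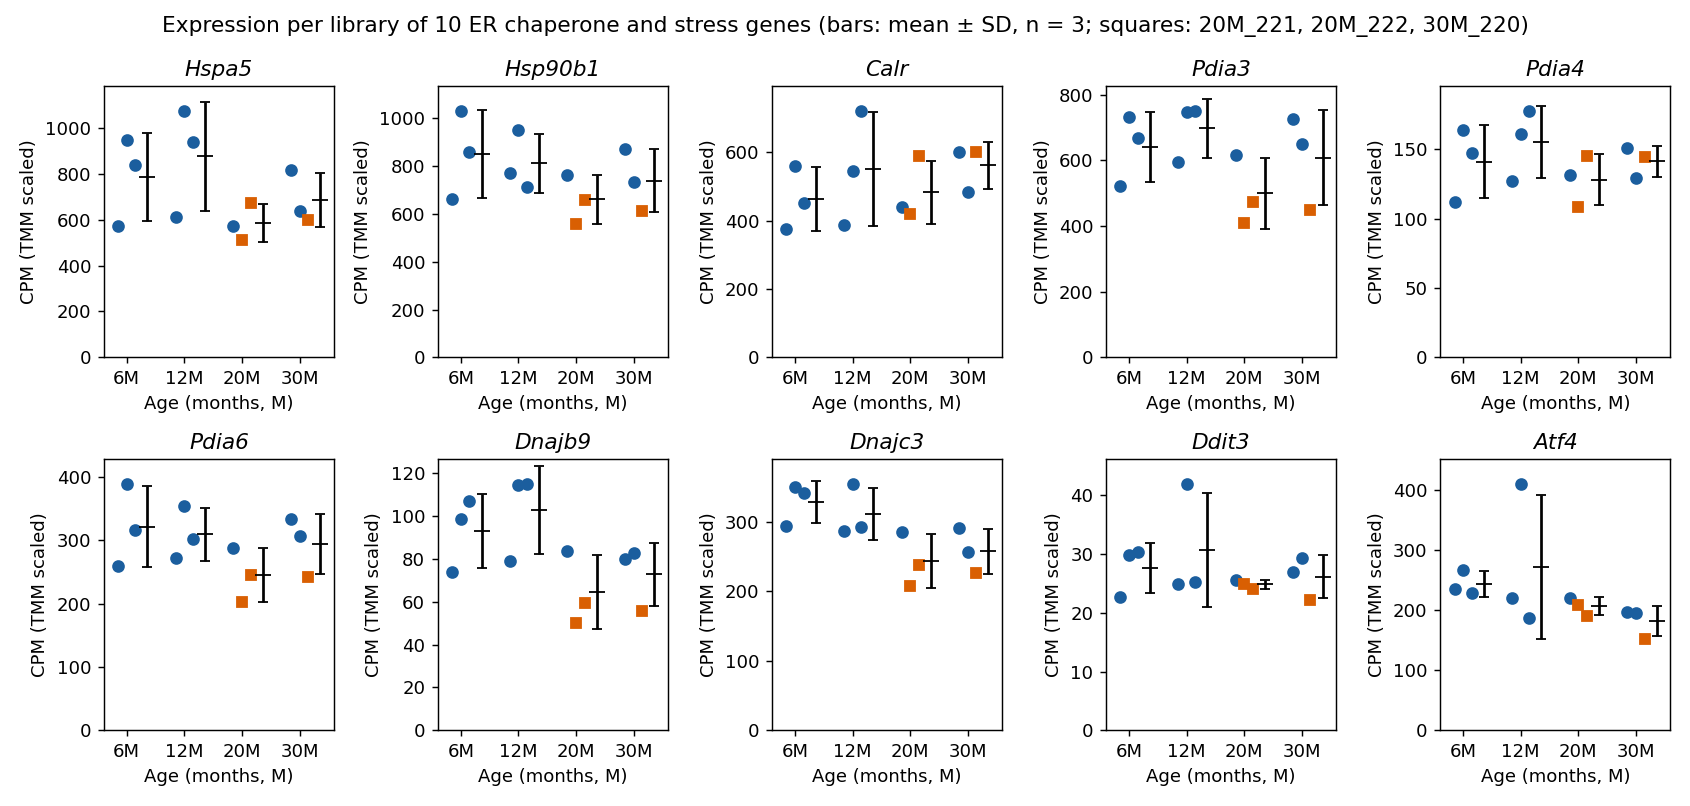
TMM-scaled CPM (y axis, from 0) of each gene in every library by age in months (x axis); black bars are mean ± SD of 3 libraries and squares mark the GC-trend libraries 20M_221, 20M_222 and 30M_220. Libraries of 1 age spread widely: Hspa5 ran from 573 to 945 CPM at 6M, and Atf4 and Ddit3 have 1 high library, 12M_207, at 410.2 and 41.9 CPM.

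Hspa5 (ENSMUSG00000026864, chromosome 2, 34771970 to 34777547), the central ER chaperone, was at 573, 945 and 839 CPM in the 6M libraries. It was at 614, 1073 and 941 CPM at 12M, 571, 509 and 672 at 20M, and 817, 638 and 599.6 at 30M. The 12M library 12M_207 was the highest, 20M_221 the lowest, and every pair of ages overlapped. Means were 786 ± 192 CPM at 6M and 685 ± 116 at 30M (SD, n = 3). The log2 fold change was -0.20 (SE 0.24, 95% interval -0.71 to 0.31, edgeR adjusted p = 0.859). That interval spans folds of 0.612 to 1.24. At 20M the mean was 584 ± 82.3 CPM, a log2 change of -0.43 from 6M (SE 0.24, edgeR adjusted p = 0.646), and -0.27 without 6M_202.

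Hsp90b1 (GRP94; ENSMUSG00000020048, chromosome 10, 86690209 to 86705509), the ER member of the HSP90 chaperones, was at 661, 1030.7 and 861 CPM at 6M. Its libraries stood at 774, 951 and 714 CPM at 12M, 764, 559 and 659 at 20M, and 873, 734 and 613 at 30M. Levels at 6M and 30M overlapped, with 6M_202 highest and 20M_221 lowest. Between means of 851 ± 185 and 740.01 ± 130.3 CPM the log2 change at 30M was -0.20 (95% interval -0.64 to 0.24, edgeR adjusted p = 0.818).

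Calr (calreticulin; ENSMUSG00000003814, chromosome 8, 84841850 to 84846934), a lectin chaperone that binds calcium and folds glycoproteins, had its highest age mean at 30M. It was at 376, 561 and 452 CPM at 6M, 387, 545 and 721 at 12M, 440.02, 420.3 and 589 at 20M, and 600.4, 483 and 602 at 30M. The 6M and 30M libraries overlapped, since 30M_218 lay below 6M_202. Means of 463 ± 93.3 and 562 ± 68.0 CPM gave a log2 change of 0.28 (SE 0.23, 95% interval -0.22 to 0.78, edgeR adjusted p = 0.756).

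The protein disulfide isomerases form and rearrange disulfide bonds in the ER. Pdia3 (ERp57), which works with calreticulin and calnexin, was at 522, 731 and 667 CPM at 6M and at 727, 650.4 and 448 CPM at 30M. Its lowest values were in 20M_221, 30M_220 and 20M_222 (408, 448 and 472 CPM), the GC-trend libraries, and its other 9 libraries ran from 522 CPM upwards. The log2 change at 30M was -0.07 (95% interval -0.54 to 0.39, edgeR adjusted p = 0.954). Pdia4 (ERp72) had means of 141 ± 26.5 CPM at 6M and 141 ± 11.1 at 30M. Its log2 change was 0.0027 with a 95% interval of -0.37 to 0.38, which spans folds of 0.773 to 1.299 (edgeR adjusted p = 0.997). Pdia6 (P5), which acts with BiP, was at 322 ± 64.6 and 294 ± 46.9 CPM, a log2 change of -0.13 (95% interval -0.54 to 0.28, edgeR adjusted p = 0.898). At 20M Pdia6 was at 245 ± 42.9 CPM, a log2 change of -0.39 from 6M (SE 0.19, edgeR adjusted p = 0.644). That value was -0.15 with a term for the GC-trend libraries, -0.17 without them and -0.23 without 6M_202. For each isomerase the libraries of 6M and 30M overlapped.

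The J-domain co-chaperones, which drive the ATP cycle of BiP, had the smallest p-values of the 10 genes at 20M against 6M. Dnajb9 (ERdj4; ENSMUSG00000014905, chromosome 12, 44205559 to 44210326), which also holds IRE1 in check, was at 73.8, 98.4 and 107 CPM at 6M. It stood at 79.2, 114 and 115 CPM at 12M, 83.5, 50.1 and 59.6 at 20M, and 79.7, 82.5 and 55.8 at 30M. The GC-trend libraries were its 3 lowest, and 20M_213 lay between 6M_201 and 6M_202. The log2 change at 20M was -0.53 (SE 0.23, edgeR adjusted p = 0.638; voom -0.75, adjusted p = 0.0442) and at 30M -0.36 (95% interval -0.84 to 0.13, edgeR adjusted p = 0.634). With the GC trend removed the 20M value was -0.35 (edgeR adjusted p = 0.84), and without the GC-trend libraries, which leaves 1 library at 20M, it was -0.17 (edgeR adjusted p = 1.0).

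Dnajc3 (p58IPK; ENSMUSG00000022136, chromosome 14, 118937976 to 118981697), a co-chaperone that can also inhibit eIF2 kinases, was at 294, 351 and 342 CPM at 6M, 286, 354 and 293 at 12M, 285, 208.2 and 238 at 20M, and 291, 257 and 226 at 30M. All 20M and all 30M libraries lay below all 6M libraries, though 30M_216 and 6M_201 differed by under 3 CPM. Means were 329 ± 30.8 CPM at 6M, 244 ± 38.7 at 20M and 258 ± 32.5 at 30M. The log2 change was -0.43 at 20M (SE 0.16, edgeR adjusted p = 0.638; voom -0.57, adjusted p = 0.0419) and -0.35 at 30M (95% interval -0.70 to -0.01, unadjusted p = 0.0469, edgeR adjusted p = 0.421). With the GC trend removed these were -0.30 (edgeR adjusted p = 0.824) and -0.27 (edgeR adjusted p = 0.501). Without the GC-trend libraries the 20M value was -0.21 (edgeR adjusted p = 1.0). Per month the log2 slope was -0.017 (SE 0.0064, edgeR adjusted p = 0.238).

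Atf4 (ENSMUSG00000042406, chromosome 15, 80255184 to 80257541), the transcription factor of the integrated stress response, was at 235, 268 and 229 CPM at 6M. It was at 219.5, 410.2 and 188 CPM at 12M, 221.1, 209 and 191 at 20M, and 198, 196 and 152 at 30M. One library, 12M_207, stood far above the rest, while all 20M and all 30M libraries lay below all 6M libraries. From 244 ± 20.96 CPM at 6M to 182 ± 25.6 at 30M the log2 change was -0.42 (SE 0.24, 95% interval -0.94 to 0.09, edgeR adjusted p = 0.562), and the slope per month was -0.022 (SE 0.0095, edgeR adjusted p = 0.322). Atf4 is controlled to a large degree at translation, which RNA counts do not measure.

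Across all 10 genes, the libraries of 30M lay wholly below those of 6M in 2, Dnajc3 and Atf4, and wholly above in 0. Over all tested genes 8.66% lay wholly below and 18.6% did not overlap in either direction. For 20M against 6M the same 2 genes lay wholly below, beside 7.58% of all genes. For 20M against 12M Dnajc3 lay wholly below (7.42% of all genes). In the other comparisons 0 of 10 lay wholly below, beside 5.81% of all genes for 12M against 6M, 5.74% for 30M against 12M and 5.16% for 30M against 20M. With 3 libraries against 3, an exact two-sided permutation test cannot give a p under 0.1.

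Ddit3 (CHOP; ENSMUSG00000025408, chromosome 10, 127290774 to 127296288), a transcription factor tied to cell death under lasting ER stress, was low at every age. Its libraries were at 22.7, 29.9 and 30.3 CPM at 6M, 24.9, 41.9 and 25.3 at 12M, 25.5, 24.9 and 24.1 at 20M, and 27.01, 29.4 and 22.2 at 30M. Again 12M_207 was the highest. The log2 change at 30M was -0.08 (95% interval -0.52 to 0.36, folds of 0.699 to 1.28, edgeR adjusted p = 0.948). In 12M_207 the summed level of 11 immediate early and heat shock genes was also the highest, at 1886 CPM against 663 to 1291 CPM in the other libraries. By age, that sum was 987 to 1291 CPM at 6M and 663 to 897 CPM at 30M, without overlap. At 30M against 6M all 11 had a log2 change below 0 (median -0.74). In edgeR 0 were called (1.96% of all genes), and 3 had an unadjusted p under 0.05 (11.6% of all genes). Their part in the levels of Atf4 and Ddit3 was not tested.

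**Figure D2:**
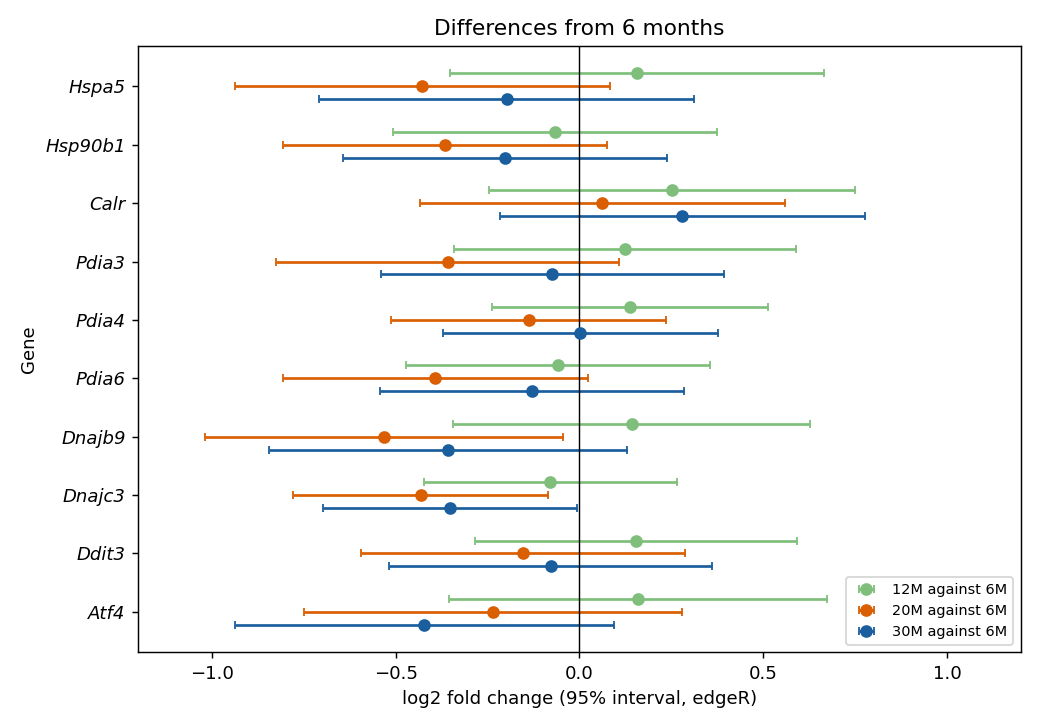
log2 fold change against 6M (x axis, edgeR, 95% interval, not adjusted over genes) of each gene (y axis) at 12M, 20M and 30M. Intervals of Dnajb9 and Dnajc3 at 20M and of Dnajc3 at 30M lie below 0, and none of these was called after adjustment.

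Most of the genes were high or low in the same libraries. In 12M_207 and 6M_202 all 10 were above their own mean over the 12 libraries, and in 20M_221 all 10 were below it. Of the 10, 7 had their lowest level in 20M_221, 2 in 30M_220 and 1 (Calr) in 6M_201. The highest level was in 12M_207 for 4, in 12M_208 for 4 and in 6M_202 for 2. Correlation with Hspa5 over the 12 libraries (log2 CPM) was tested for the other 9 genes by permutation with 100000 resamples, and 8 of the 9 passed at an adjusted p under 0.05 for Pearson's r (7 for Spearman's rho). Of the 18406 other tested genes, 5.39% had an r to Hspa5 at or above that of Calr, the lowest of these 8, and the median r over all genes was -0.03.

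Pdia4 was closest to Hspa5, with r = 0.88 and rho = 0.89 (permutation, adjusted p = 0.00126 and 0.00189) and r = 0.88 without 6M_202 and 12M_207, the 2 libraries farthest from the Hspa5 median. For Pdia6, Dnajb9, Pdia3, Hsp90b1 and Dnajc3, r was 0.83, 0.81, 0.81, 0.78 and 0.77 and rho was 0.80, 0.75, 0.84, 0.70 and 0.73. Their adjusted permutation p-values were 0.00392 to 0.00546 for r and 0.00464 to 0.0213 for rho, and r was 0.61 to 0.76 without those 2 libraries. Ddit3 had r = 0.72 and rho = 0.69 (permutation, adjusted p = 0.00546 and 0.0217), and r = 0.47 without the same 2 libraries. Calr had r = 0.60 and rho = 0.54 (permutation, adjusted p = 0.0441 and 0.0838), and r = 0.65 without them. Atf4 did not pass, with r = 0.54 and rho = 0.24 (permutation, adjusted p = 0.0614 and 0.444). Without them its r was -0.10, so its r over the 12 libraries depended on those 2.

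The relation was also computed without the GC-trend libraries and within ages. Over the other 9 libraries 8 of 9 genes passed with r (r of 0.48 to 0.91 over all 9; permutation), though 3 of 9 with rho. With deviations from the age means in place of levels, 8 of 9 passed with r (0.42 to 0.88 over all 9) and 6 with rho. That permutation treated all deviations as independent, though those of each age are tied by their mean. Its p-values are therefore too small, and these counts within ages may be too high. Removal of the GC trend left 8 of 9 for r and 7 for rho. Atf4 did not pass in any of these settings, with r = 0.48, 0.42 and 0.43 in the order given. Without the 2 libraries farthest from the Hspa5 median in each setting, its r was 0.60, 0.39 and 0.25. All genes of a library share its depth, scaling and tissue sample.

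**Figure D3:**
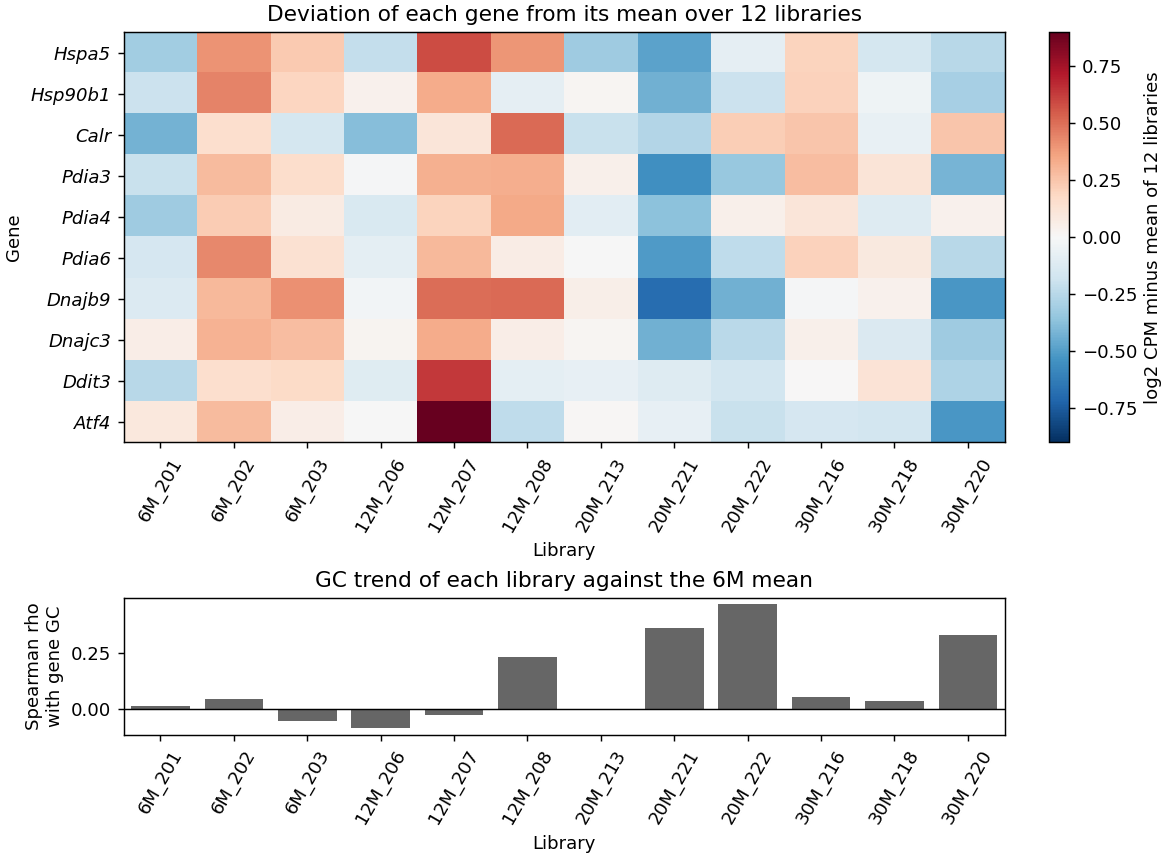
Upper panel: log2 CPM of each gene (rows) in each library (columns) minus the gene's mean over 12 libraries, from blue (lower) to red (higher). Lower panel: Spearman rho between gene GC content and expression relative to the 6M mean; 20M_221 is low for all 10 genes, and 12M_207 and 6M_202 are high for all 10.

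The ratio of Calr to Hsp90b1 is given as a description. It was picked after the values were seen, and neither gene was called. Within a library, the count of Calr over that of Hsp90b1 was 0.568, 0.544 and 0.525 at 6M, 0.501, 0.573 and 1.01 at 12M, 0.576, 0.752 and 0.895 at 20M, and 0.688, 0.659 and 0.982 at 30M. All 20M and all 30M libraries lay above all 6M libraries. Means of 0.546 ± 0.0218 at 6M and 0.776 ± 0.179 at 30M differed by 0.48 on the log2 scale. The highest 4 ratios were in 12M_208, 30M_220, 20M_222 and 20M_221, the libraries with the highest rho of expression with GC content. GC content is 50.0% in the longest Calr transcript and 42.1% in that of Hsp90b1. With the GC trend removed the ratio was 0.583 ± 0.0171 at 6M and 0.759 ± 0.106 at 30M, a log2 difference of 0.37. All 20M and all 30M libraries still lay above all 6M libraries, by little in 20M_213 (0.612, against 0.601 in 6M_201). The part of GC content in this ratio was not tested.

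Likeness was also measured over all tested genes. The 5 genes outside the 10 with the highest Pearson r to the mean z score of the 8 chaperones and co-chaperones, over 12 libraries, were Canx (r = 0.97), Cct7 (0.94), Dnajb11 (0.94), Cct6a (0.93) and Pdha1 (0.93). Of the 8 themselves, which are part of that mean, Calr had r = 0.52 and the others 0.85 to 0.95. Canx is the membrane-bound partner of calreticulin, Dnajb11 a BiP co-chaperone, Cct7 and Cct6a are subunits of the cytosolic chaperonin, and Pdha1 is a subunit of pyruvate dehydrogenase. Canx averaged 408 ± 41.7 CPM at 6M and 391 ± 48.7 at 30M. For the mean z score of Ddit3 and Atf4 the closest genes were Crem (r = 0.94), Chordc1 (0.93), Slc5a3 (0.93), Akirin1 (0.91) and Rock2 (0.91). That score was 2.58 in 12M_207, and the next highest was 0.71 in 6M_202. These r values therefore depend heavily on 12M_207, and r without it was not computed. Predicted genes and pseudogenes were passed over in both rankings. Each r was among the highest of the remaining tested genes by choice, so none carries a p.

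Further genes of ER folding gave 1 call, in the slope. Of 30 other ER chaperones and folding enzymes, 0 were called at 30M against 6M (edgeR), beside 1.96% of all genes. At an unadjusted p under 0.05 there were 4, beside 11.6% of all genes. The median log2 change was -0.06 against 0.0028 over all genes. In the slope per month 0 rose and 1 fell, beside 2.5% higher and 0.179% lower among all genes. The one that fell was Pdia5, an isomerase, at 18.05 ± 2.03, 17.9 ± 3.70, 12.8 ± 0.974 and 11.5 ± 0.74 CPM at 6M, 12M, 20M and 30M (log2 slope -0.031 per month, SE 0.0070, edgeR adjusted p = 0.0282). That call was lost without 6M_201, 6M_202, 30M_216, 30M_218 or 30M_220 (adjusted p 0.0504 to 0.103) and without the 3 GC-trend libraries (0.111). Ero1l, the oxidase that recharges the isomerases, averaged 52.7 ± 1.16 CPM at 6M and 41.5 ± 1.2 at 30M (edgeR adjusted p = 0.155). Erp29 and Cnpy3 stood at 93.6 ± 10.9 and 49.1 ± 2.29 CPM at 6M and at 115 ± 11.3 and 61.6 ± 4.16 at 30M (edgeR adjusted p = 0.38 and 0.413).

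ER-associated degradation exports misfolded proteins to the proteasome. Of its 22 genes 0 were called at 30M against 6M in edgeR (1.96% of all genes). An unadjusted p under 0.05 held for 2 (11.6% of all genes), and the median log2 change was -0.03. Derl3, a channel component that plasma cells also express, averaged 2.02 ± 0.376 CPM at 6M and 4.81 ± 0.416 at 30M (log2 change 1.25, SE 0.49, edgeR adjusted p = 0.303). The mannosidase-like Edem3 was at 74.9 ± 10.9 and 57.7 ± 4.92 CPM (edgeR adjusted p = 0.328), Edem1 at 81.2 ± 8.11 and 93.5 ± 2.83 (0.671), and Selenos at 125 ± 11.6 and 106 ± 32.8 (0.814).

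Among sensors and regulators of the unfolded protein response, 15 of 17 were tested. At 30M against 6M 0 were called in edgeR (1.96% of all genes) and 0 had an unadjusted p under 0.05 (11.6%). The median log2 change was -0.01. Eif2ak3, which encodes PERK, averaged 44.6 ± 4.09 CPM at 6M and 39.3 ± 4.66 at 30M (edgeR adjusted p = 0.666). Creb3l1, Atf6b and Creb3l4 had edgeR adjusted p-values of 0.765, 0.843 and 0.848. Kinases and phosphatases of the eIF2 pathway, with the subunits of its exchange factor, had 0 of 13 called in edgeR. At an unadjusted p under 0.05 there was 1, beside the same 11.6% of all genes, and the median was -0.07. Eif2ak2 (PKR), which interferon also induces, averaged 24.4 ± 1.2 CPM at 6M and 40.6 ± 15.2 at 30M (log2 change 0.73, SE 0.21, edgeR adjusted p = 0.125). Ppp1r15a (GADD34), a phosphatase subunit that Atf4 and CHOP can induce, was at 65.8 ± 3.6 and 53.7 ± 5.43 CPM (edgeR adjusted p = 0.451).

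Targets of ATF4 and CHOP had no call. Of 36 listed, 35 were tested and 0 called at 30M against 6M (edgeR), beside 1.96% of all genes. An unadjusted p under 0.05 held for 4, beside 11.6% of all genes. The log2 change was above 0 in 19 and below it in 16 (median 0.03). Cth, of cysteine synthesis, was at 10.4 ± 1.46 and 6.15 ± 1.01 CPM (log2 change -0.76, edgeR adjusted p = 0.163). The lipoprotein receptor Vldlr was at 64.7 ± 5.37 and 48.1 ± 2.63 CPM (-0.43, edgeR adjusted p = 0.163). Mthfd2, a mitochondrial folate enzyme, stood at 6.80 ± 1.56 and 11.5 ± 0.546 CPM (0.76, edgeR adjusted p = 0.185), and Phgdh, of serine synthesis, at 8.44 ± 1.15 and 11.8 ± 1.44 (0.49, edgeR adjusted p = 0.422).

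**Figure D4:**
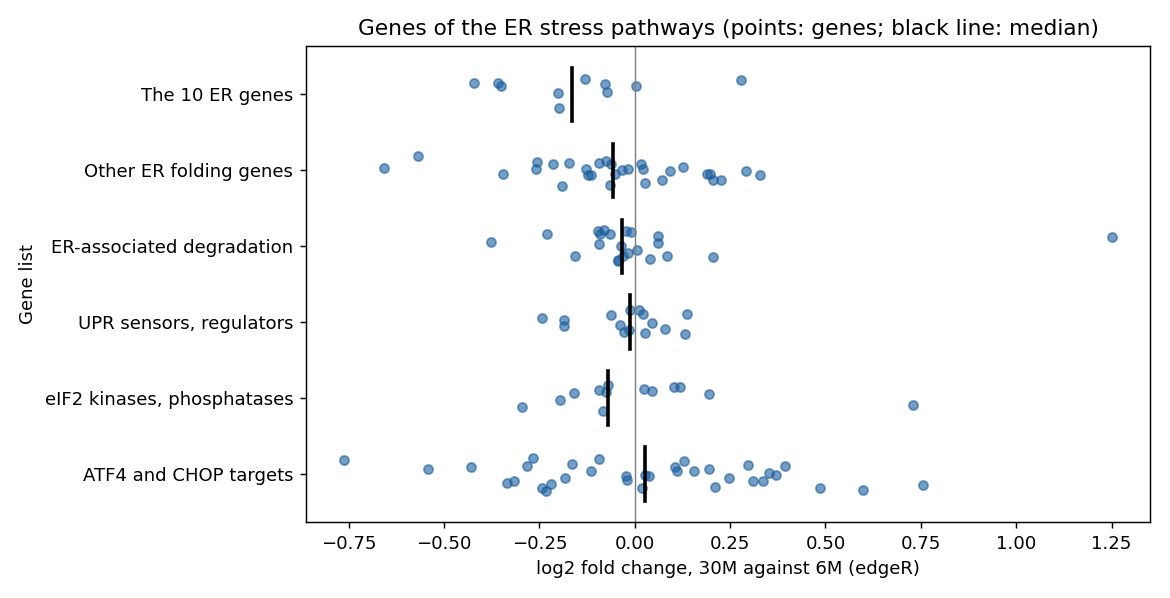
log2 fold change at 30M against 6M (x axis, edgeR) of each tested gene (points) in 6 lists (y axis), with the list median as a black line. Medians lie between -0.16 (the 10 ER genes) and 0.03 (targets of ATF4 and CHOP), and no gene of these lists was called in this comparison.

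Markers of secretory cells were set beside these levels. The 16 plasma cell markers summed to 718 to 871 CPM at 6M, 912 to 5038 at 12M, 1749 to 5206 at 20M and 3214 to 4431 at 30M. In this sum all 30M libraries lay above all 6M libraries. At 30M against 6M edgeR called 3 of the 15 tested plasma cell markers higher, 0 of the 10 ER genes and 1.93% of all genes. Macrophage markers, which are not a secretory list, had 6 of 10 called higher in that comparison. Of the alveolar type 2 markers 0 of 9 were called in either direction, and of the airway secretory markers 0 of 8 (1.96% of all genes). The 9 alveolar type 2 markers, led by Sftpc, Sftpa1 and Sftpb, summed to 31416 to 36442 CPM at 6M and 19279 to 32841 at 30M. Their 3 lowest libraries were 30M_220, 20M_221 and 20M_222, at 19279, 20478 and 22253 CPM, and the rest were at 27827 CPM or more. These 3 are the GC-trend libraries, and they are also the 3 lowest libraries of 5 of the ER genes, Hsp90b1, Pdia3, Pdia6, Dnajb9 and Dnajc3. The 8 airway secretory markers were highest in 12M_208, at 68635 CPM against 28796 to 51846 in the others, and 12M_208 held the highest level of Calr, Pdia3, Pdia4 and Dnajb9. The part of cell composition in the levels of the ER genes was not tested, and in the GC-trend libraries it cannot be told apart from that trend.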

How the data were processed

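Raw whole-number read counts for each gene, not normalized, were deposited by the authors. They used GRCm38 (mm10) and list HISAT2 2.1.0, featureCounts, Trimmomatic 0.38 and FastQC 0.11.7, per the submitters' processing notes. The sources used here do not name the annotation release or strand setting. Per the labels' protocols, RNA was poly-A selected and sequenced as paired ends. The members, lists, motifs and tests were chosen with earlier results of these data known. Counts were tested in R 4.3.3 with edgeR 4.0.16 (quasi-likelihood, robust fit, TMM, filterByExpr), all 12 libraries in 1 fit with age as a factor, or months for the slope. Intervals are 95%. Alternatives used DESeq2 1.42.0 and limma 3.58.1. Simulated differences at 30M against 6M were used to gauge the edgeR test. With a simulated fold of 1.5 it recovered 2 genes out of 67 (2.99%). Recovery rose to 30 out of 67 (44.8%) where the fold was 2, and to 53 out of 66 (80.3%) where it was 4. The changed genes were drawn at random from all tested genes, so recovery among genes as abundant as the 10 was not measured. Absence of a call by itself therefore says little about differences near 1.5-fold. For the 10 genes, the 95% intervals given above, not adjusted over genes, show the range of changes at 30M against 6M. RPKM use GENCODE M21 exon lengths; GC content is that of the longest transcript, and the removal of each library's GC trend was chosen after seeing the data. Named genes are the 10 members, up to 4 genes per pathway list by p at 30M against 6M, up to 3 per marker list by level, and 5 most alike genes per set. No 2 libraries of 1 age were duplicates (chi-square per gene 6.66 to 49.9).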

Additional observations from a re-analysis of the deposited data

How the results depend on the processing

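No paired analysis was possible because each replicate number belongs to a single age. Counts of called members were 0 under every alternative in each comparison, except that limma voom with quality weights called 2 at 20M against 6M and 2 in the joint test. Whichever single library was left out, the count was 0 in all comparisons. The call of the Pdia5 slope was lost in 6 of 21 alternatives. At 30M against 6M, the log2 changes of Hspa5, Hsp90b1, Calr, Dnajb9, Dnajc3 and Atf4 kept their sign in all 21 alternatives, though some moved by over 1.5 times. The range was -0.383 (without 6M_201) to -0.0451 (without 6M_202) for Hspa5, -0.357 to -0.0428 for Hsp90b1 without the same 2 libraries, and 0.147 to 0.44 for Calr without them. Dnajb9 reached -0.187 with a term for the GC-trend libraries. Those of Pdia3, Pdia4, Pdia6 and Ddit3, all near 0, changed sign in some. With a term for the GC-trend libraries Pdia3 was at 0.0837. Without these libraries, which leaves 20M with 1 library assumed to vary like the other ages, Pdia3 was at 0.105, Pdia4 at -0.0113 and Ddit3 at 0.0292. Pdia4 was at -0.0286 with voom and -0.0029 with no count filter. With 1 library left out in turn the ranges were -0.225 to 0.105 for Pdia3, -0.141 to 0.121 for Pdia4, -0.264 to 0.0276 for Pdia6 and -0.204 to 0.0289 for Ddit3; the cause was not tested. The fit with the GC trend removed, the likeness without the GC-trend libraries and the likeness with that trend removed were added after seeing the data. Depth was not varied.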
